A study of Mus musculus with 18 samples.

Results

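The DNA replication and G1/S genes were followed as 50 genes chosen by symbol: the licensing factors and helicase that prepare replication origins, the proteins of the moving fork, the enzymes that supply deoxynucleotides, and the E2F and cyclin E genes that drive entry into S phase. All 50 were found among the 23420 gene rows of the deposited table, and all 50 were among the 11762 genes with enough reads to be tested. The cells were NIH-3T3, an immortalized mouse fibroblast line. Wild-type (WT) cells were compared with cells in which Nrf1, the transcription factor encoded by Nfe2l1 that induces proteasome genes when the proteasome is blocked, had been knocked out with CRISPR/Cas9 (Nrf1-KO). Each line was treated with the vehicle DMSO or with 200 nM carfilzomib (CFZ), an irreversible proteasome inhibitor, for 6 or 24 h. This gave 6 groups of 3 RNA-sequencing libraries, described by the study as 3 biological replicates. The time in DMSO is not given in the sources used here, nor is whether the Nrf1-KO line is a single clone. A single DMSO group per line served both 6 and 24 h, so a change with CFZ cannot be fully told apart from one with time in culture. Likewise, a difference between the lines cannot be told apart from a difference between clones.

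DNA replication starts from origins that are marked in G1 by the origin recognition complex. Cdc6 and Cdt1 load the MCM2-7 helicase onto these origins, geminin (Gmnn) holds Cdt1 in check, and in S phase Cdc45 and the GINS complex join MCM2-7 to form the active CMG helicase. Many of these genes are transcribed by E2F factors, which cyclin E and its kinase release from the retinoblastoma proteins as cells pass from G1 to S. In cycling fibroblasts their mRNAs therefore rise and fall with the share of cells at the G1/S boundary. In a bulk culture, fewer cells in S phase and less mRNA per cell cannot be told apart, and this holds for every value below.

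The promoters of these genes are known for E2F elements, so the letters of such elements were searched in the RefSeq windows of the mouse build GRCm38.p6, which run from 250 bases before to 50 bases after the transcription start. A window was at hand for 41 of the 50 genes. The remaining 9 were Gmnn, Mcm4, Gins1, Gins2, Gins4, Rfc2, Prim2, Pole and Ccne2. The motif was any of TTTCCCGC, TTTGGCGC, TTTCGCGC and TTTGCCGC on either strand. It was found in 17 of the 41 genes (41.5%), against 4.81% of the 8781 tested genes with a window. Per window the shares were 35.4% of 48 windows of these genes, 3.94% of the 11254 windows of tested genes and 2.26% of all 32851 windows. The looser core of the motif, without its first T, was found in 65.9% of these genes and in 20% of the tested genes. The CCAAT box (CCAAT, both strands) was in 61% of the genes and in 43.9% of tested genes, and the antioxidant response element core TGACNNNGC, a sequence that Nrf1 can bind, was in 19.5% and 17.2%. A match of letters is a description and not a bound site. Only stretches with an E2F motif wholly before the start were considered for display. Those of 5 genes lie outside every annotated exon and are shown. These genes include the loader Cdc6, a pair of helicase subunits and the maintenance factor Uhrf1, all of which fell in both lines after 24 h of CFZ. The response to CFZ played no part in the choice of stretches. The motif is in capitals, and where matches on opposite strands overlap the capitals run through both. Each sequence is read 5′ to 3′ on the strand of the gene, and its first base is counted from the RefSeq start site of its window. The stretches of Cdc6 and Uhrf1 lie within the genes as annotated in GENCODE M21, which start at bases 98907801 and 56303321.
Cdc6, chr11:98907993-98908040, plus strand, from base -158: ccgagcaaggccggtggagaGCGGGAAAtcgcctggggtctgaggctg
Mcm5, chr8:75109336-75109387, plus strand, from base -173: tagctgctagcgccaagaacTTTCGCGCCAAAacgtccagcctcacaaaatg
Mcm6, chr1:128359725-128359835, minus strand, from base -130: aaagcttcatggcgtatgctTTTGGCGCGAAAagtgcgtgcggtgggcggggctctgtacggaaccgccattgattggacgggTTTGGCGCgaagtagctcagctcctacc
Pola1, chrX:93632266-93632313, minus strand, from base -158: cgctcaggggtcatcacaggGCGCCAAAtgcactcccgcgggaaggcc
Uhrf1, chr17:56304108-56304155, plus strand, from base -205: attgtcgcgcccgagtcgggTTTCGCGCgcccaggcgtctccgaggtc

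The libraries held between 8333148 and 23917081 counted reads. The 50 genes took 0.239% to 0.493% of them, and the fewest reads behind any single value were 29, for E2f2 in Nrf1-KO cells at 24 h. Nfe2l1 itself was at 437 to 457 CPM (reads scaled to library size with TMM factors) in WT DMSO and 174 to 185 in Nrf1-KO DMSO, and it was lower in Nrf1-KO than in WT at both times of CFZ (413 to 427 against 628 to 650 at 6 h, 201 to 210 against 555 to 580 at 24 h). Of 8 fibroblast markers all 8 were detected. Their summed level was 33300 to 36000 CPM in WT DMSO and 8490 to 8840 at 24 h of CFZ, and 26500 to 33200 and 11300 to 13500 in Nrf1-KO. The marker sum thus fell in both lines, as did most of the replication genes described next. The fall of the sum was larger in WT, whereas that of the replication genes was larger in Nrf1-KO. Single markers did not all follow the sum in the interaction test at 24 h described below. Col1a2, Col3a1, Vim and Fbln2 fell by more in WT. Thy1 and Pdgfrb fell by more in Nrf1-KO (log2 -0.26, adjusted p = 0.000909, and -0.20, adjusted p = 0.019). For Col1a1 and Fn1 the difference was not called (adjusted p = 0.0729 and 0.123). Within the sum, Vim in Nrf1-KO was at 3398 CPM in DMSO and 3451 CPM at 24 h. The part of the marker fall in that of the replication genes was not tested. Of 12 markers of other cell types, 7 passed the read minimum and 5 stayed under 1 CPM throughout, with no count for Epcam and Sox10. The sum of all 12 was 155 to 165 CPM in WT DMSO and 169 to 184 at 24 h, and 83.1 to 84.2 and 161 to 166 in Nrf1-KO. They moved in different directions. With DMSO alone Krt14 was at 141.8 CPM in WT and 58.7 CPM in Nrf1-KO, and Cdh1 at 6.12 and 11.6 CPM. At 24 h Cdh1 fell 11.7-fold in WT and 29.3-fold in Nrf1-KO, while Tubb3 rose (from 10.5 to 39.0 CPM and from 9.78 to 66.8 CPM), as did Cdh5 (to 2.96 and 3.40 CPM) and Cd68 (to 3.21 and 4.48 CPM). Ptprc had no count in WT and 0.719 to 1.33 CPM in Nrf1-KO, and Des stayed under 3 CPM. The part of these markers in the results was not tested. No library was closer to another group than to its own.

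The first question was how the replication genes responded to CFZ in each line. After 24 h most of them were lower in both lines, and they were lower by more in Nrf1-KO cells. Tests were made for every gene of the table with edgeR's quasi-likelihood test, and a gene was called at a Benjamini-Hochberg adjusted p under 0.05. In WT cells at 24 h, 39 of the 50 genes were called lower, where 40.5% of all tested genes were, and 7 were called higher, where 43.2% of all were. In Nrf1-KO cells 43 were lower against 41.1% of all genes, and 1 was higher against 44.4%. The median log2 fold change was -0.48 in WT and -0.78 in Nrf1-KO, beside 0.02 and 0.03 over all tested genes. A fall of at least 2-fold was called for 8 of the 50 genes in WT and 17 in Nrf1-KO, where 14.5% and 15.2% of all tested genes fell that far. The WT count was thus near the share of all genes, and the Nrf1-KO count was above it. In both lines 37 of the 50 genes were lower, where 32.8% of all tested genes were, and 0 were higher in both, where 35.2% of all were. Scaling by library size alone or by upper quartiles moved the median of all genes by -0.105 or -0.137 in WT and by -0.183 or -0.109 in Nrf1-KO. Relative to that median the genes' own median was -0.506 in WT and -0.815 in Nrf1-KO under either scaling. With library size alone the share of higher among all calls in Nrf1-KO was 41.6% and not 52%, and 49 of the 50 genes were then called lower and 0 higher.

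**Figure D1:**
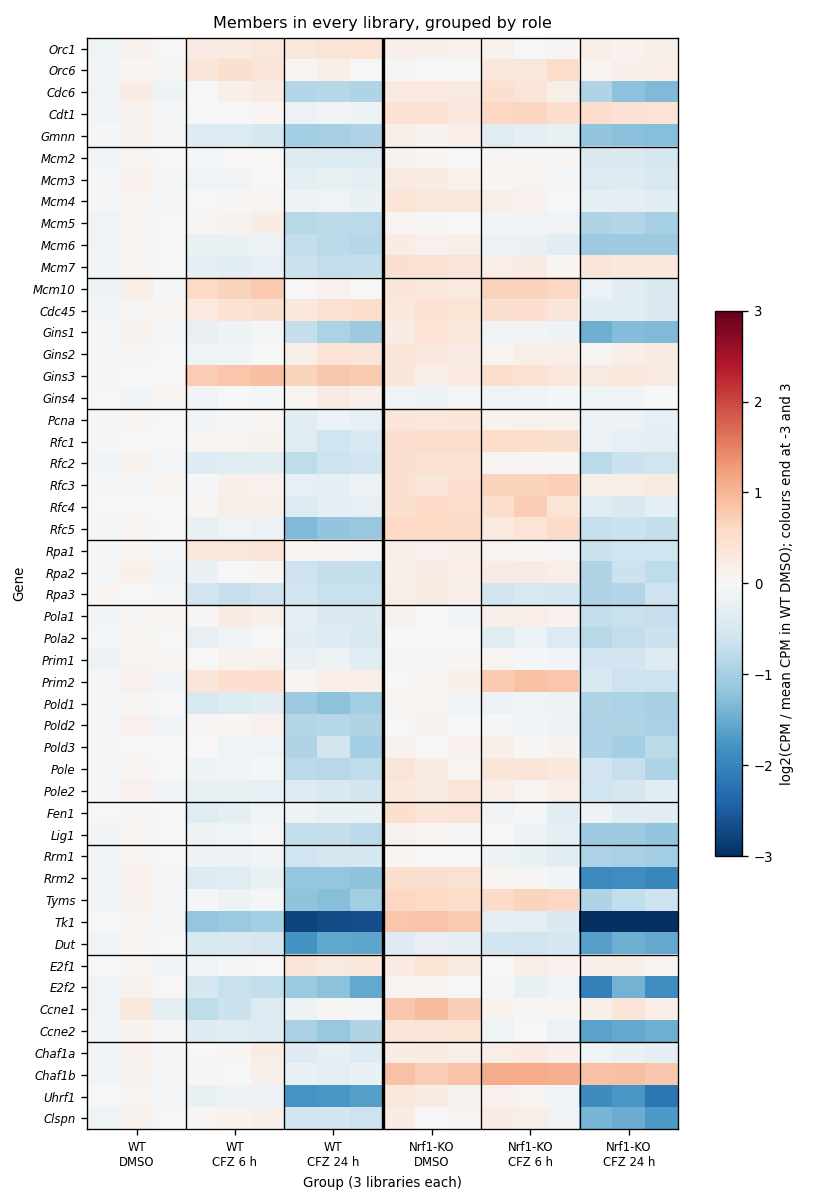
Each column is a library and each row a gene, grouped by role, with colour giving the log2 ratio of the gene's CPM to its mean in WT DMSO (the scale ends at -3 and 3, which clips Tk1 in Nrf1-KO at 24 h). Most rows are blue in the 24 h libraries of both lines, while Gins3, Cdc45 and Orc1 are redder at 24 h in WT than in Nrf1-KO.

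Summed over the 50 genes, the level in WT was 3657, 4046 and 3791 CPM in DMSO, 3652, 3752 and 3897 at 6 h, and 2759, 2811 and 2750 at 24 h. In Nrf1-KO it was 4605, 4483 and 4417 CPM in DMSO, 4141, 4123 and 3906 at 6 h, and 2584, 2587 and 2523 at 24 h. In DMSO the 3 Nrf1-KO libraries thus lay above the 3 WT libraries, and at 24 h they lay below them. At 6 h the WT sums overlapped those in WT DMSO, whereas the Nrf1-KO sums lay under all of theirs in DMSO.

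**Figure D2:**
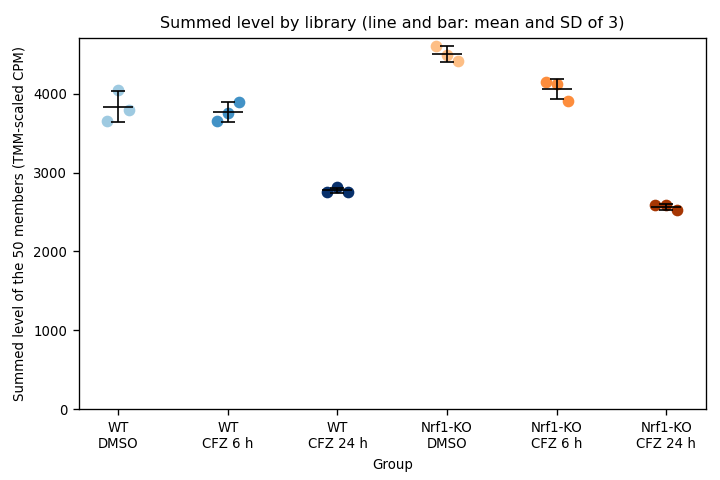
The y axis is the summed level of the 50 genes in TMM-scaled CPM, with a point per library and the mean and SD of 3. The means were 3832, 3767 and 2774 CPM in WT and 4501, 4057 and 2565 in Nrf1-KO, so the order of the lines turned between DMSO and 24 h.

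The enzymes of deoxynucleotide supply fell the most. Thymidine kinase 1 (Tk1), which salvages thymidine for DNA synthesis, was at 62.4, 66.1 and 60.9 CPM in WT DMSO, at 28.1, 29.4 and 31.3 CPM at 6 h and at 9.35, 9.89 and 9.98 CPM at 24 h. In Nrf1-KO cells it was at 112.7, 113.6 and 109.3 CPM in DMSO, at 52.5, 51.3 and 46.6 CPM at 6 h and at 6.20, 7.99 and 7.55 CPM at 24 h. No 2 groups of Tk1 overlapped, and the line that started higher ended lower. The fall at 24 h was 6.45-fold in WT (log2 -2.69, SE 0.0673, adjusted p = 2.91e-26) and 15.3-fold in Nrf1-KO (log2 -3.93, SE 0.0634, adjusted p = 1.99e-31). Tk1 was also the only gene lower by at least 2-fold at 6 h, by 2.13-fold in WT and 2.21-fold in Nrf1-KO. Rrm2, the S phase subunit of ribonucleotide reductase, went from 82.9, 96.0 and 85.9 CPM to 39.2, 39.3 and 38.3 CPM at 24 h in WT, and from 122.9, 123.9 and 120.9 CPM to 23.3, 24.3 and 22.6 CPM in Nrf1-KO. This was a 2.26-fold fall in WT (log2 -1.18, SE 0.0565, adjusted p = 9.53e-19) and a 5.23-fold fall in Nrf1-KO (log2 -2.39, SE 0.0578, adjusted p = 1.11e-26). The large subunit Rrm1 and thymidylate synthase (Tyms), which makes thymidylate from deoxyuridylate, fell less. Rrm1 changed by -0.53 in WT and -1.01 in Nrf1-KO on the log2 scale, and Tyms by -1.17 and -1.33.

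Dut, the phosphatase that keeps uracil out of DNA by destroying dUTP, ran against the other enzymes of its group in how the lines differed. In WT it fell from 67.5, 76.8 and 73.7 CPM in DMSO to 20.9, 24.7 and 24.2 CPM at 24 h, and in Nrf1-KO from 55.6, 61.1 and 59.4 CPM to 23.0, 26.1 and 25.1 CPM. The lines did not overlap in DMSO, where WT was higher, and overlapped at 24 h. The log2 fold changes were -1.62 (SE 0.0591, adjusted p = 6.91e-22) and -1.24 (SE 0.058, adjusted p = 4.24e-19). Across this group all 5 enzymes were lower at 24 h in both lines, 4 of them by at least 2-fold in WT and all 5 in Nrf1-KO.

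**Figure D3:**
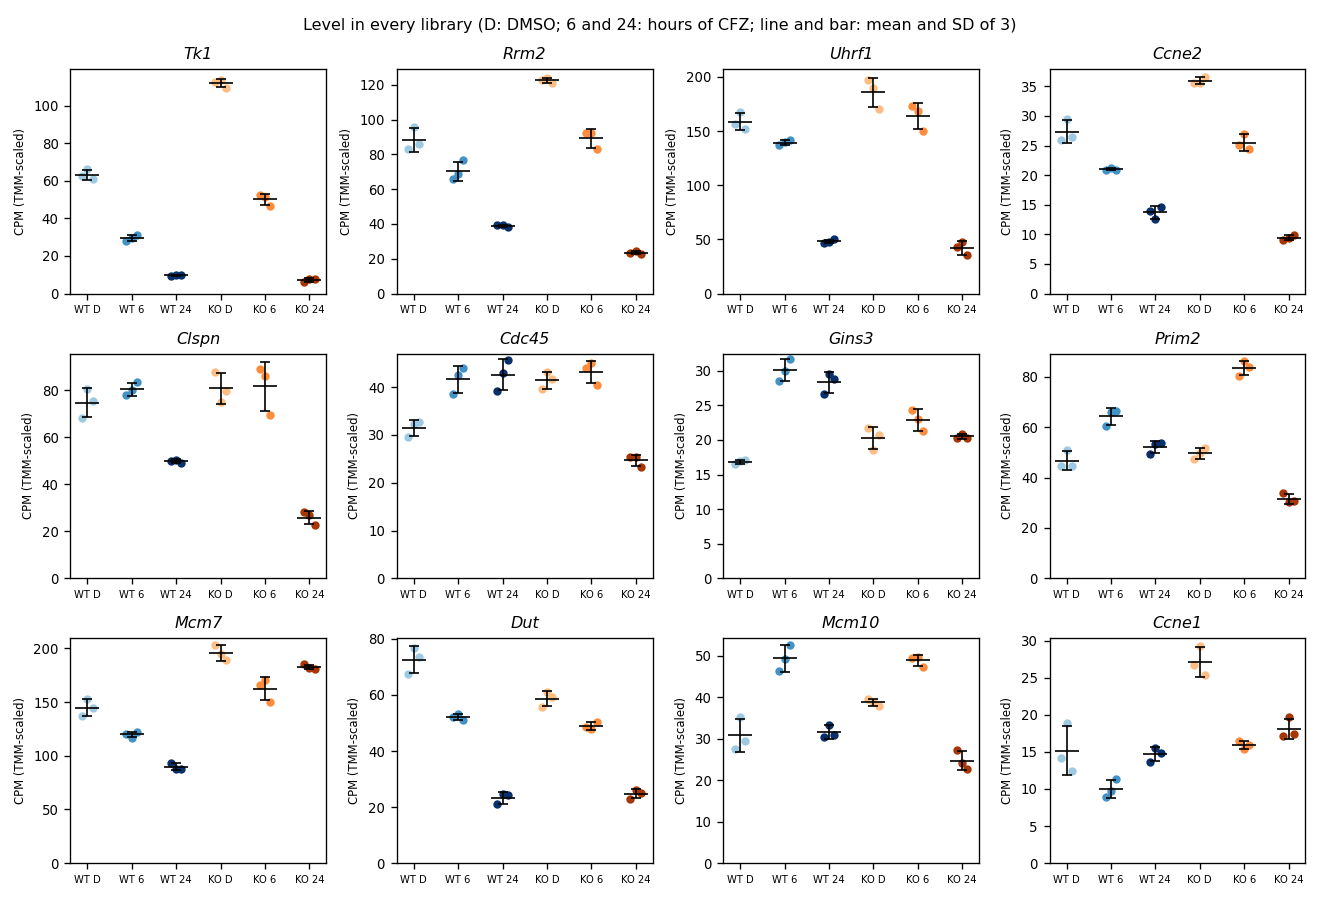
Each panel shows 1 gene in the 18 libraries, with TMM-scaled CPM on a y axis that starts at 0, a point per library, and the mean and SD of 3 per group (D, DMSO; 6 and 24, hours of CFZ). Tk1 and Rrm2 drop stepwise in both lines, Gins3 and Cdc45 rise in WT alone at 24 h, and Mcm7 in Nrf1-KO at 24 h lies near its DMSO level.

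The proteins that license origins split in their response. Geminin, the inhibitor of Cdt1, was at 22.4, 25.0 and 22.4 CPM in WT DMSO and 11.5, 11.7 and 12.3 CPM at 24 h, and at 26.2, 25.2 and 26.8 CPM and 10.3, 9.76 and 9.64 CPM in Nrf1-KO. The groups were apart, with log2 fold changes of -0.97 (SE 0.071, adjusted p = 6.02e-14) and -1.40 (SE 0.0692, adjusted p = 1.85e-18). The MCM loader Cdc6 fell by 0.88 in WT and by 1.43 in Nrf1-KO on the log2 scale. Its partner Cdt1 changed by -0.14 in WT (adjusted p = 0.00986), and its value in Nrf1-KO was 0.05 (adjusted p = 0.332), which turned to -0.14 and was called lower with library size alone. The WT call was lost without WT DMSO replicate 2 (-0.08, adjusted p = 0.13). Orc1, the ATPase of the origin recognition complex, was higher in WT at 24 h, at 38.2, 39.5 and 40.0 CPM against 27.2, 32.8 and 29.8 CPM in DMSO. In Nrf1-KO the values were 33.4, 33.4 and 32.7 CPM in DMSO and 34.1, 32.5 and 34.0 CPM at 24 h. The 24 h libraries of WT thus lay above all of those in DMSO, and those of Nrf1-KO overlapped them. The log2 fold changes of Orc1 were 0.40 (SE 0.056, adjusted p = 1.16e-07) and 0.01 (SE 0.0546, adjusted p = 0.804), and the latter turned to -0.17 with library size alone (adjusted p = 0.00582). Exons of Orc1 overlap the opposite-strand gene Gm12743 over 11.9% of their length.

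Orc6, the smallest subunit of the complex, was the only gene called higher at 24 h in Nrf1-KO. It was at 41.9, 41.4 and 40.9 CPM in DMSO and at 42.8, 45.7 and 46.7 CPM at 24 h, a log2 fold change of 0.13 (SE 0.0551, adjusted p = 0.033). The groups were narrowly apart. The call was lost with DESeq2 (0.11, adjusted p = 0.0994), and the direction turned with library size alone (-0.06). It was also lost without any single one of Nrf1-KO DMSO replicates 2 and 3 and CFZ 24 h replicates 2 and 3, where the adjusted p reached 0.276. In WT the log2 fold change of Orc6 was 0.09 (adjusted p = 0.126), with the sign turned under upper-quartile scaling (-0.04) and library size alone (-0.01).

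All 6 subunits of the MCM2-7 helicase, the ring that unwinds DNA, were lower at 24 h in both lines. Per kb of exon they stood close together in WT DMSO, from 48.9 CPM per kb for Mcm7 to 58.5 for Mcm3, and at 24 h they had spread out, from 30.3 for Mcm5 and Mcm7 to 49.7 for Mcm4. Mcm6 was at 229.6, 256.6 and 249.1 CPM in WT DMSO and at 148.4, 139.6 and 134.5 CPM at 24 h. In Nrf1-KO it was at 284.9, 268.8 and 274.8 CPM and at 115.6, 115.0 and 114.4 CPM. All 24 h libraries lay below all DMSO libraries, and Mcm6 fell 1.74-fold in WT (log2 -0.80, SE 0.0427, adjusted p = 1.5e-17) and 2.4-fold in Nrf1-KO (log2 -1.26, SE 0.0426, adjusted p = 7.23e-23). Mcm5 fell by 0.80 and 0.95 on the log2 scale, Mcm2 by 0.40 and 0.51, Mcm3 by 0.27 and 0.62, and Mcm4 by 0.16 and 0.63, each in WT and in Nrf1-KO.

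Mcm7 was the exception in Nrf1-KO. In WT it was at 137.1, 152.8 and 144.9 CPM in DMSO and at 93.3, 87.4 and 88.1 CPM at 24 h. In Nrf1-KO it was at 203.5, 194.6 and 188.8 CPM in DMSO, at 166.3, 170.7 and 150.1 CPM at 6 h and at 185.1, 181.8 and 181.2 CPM at 24 h. Its level in Nrf1-KO thus went down at 6 h and was higher again at 24 h than at 6 h (log2 0.16, adjusted p = 0.000967). The 24 h change from DMSO was -0.70 in WT (SE 0.0452, adjusted p = 2.56e-15) and -0.10 in Nrf1-KO (SE 0.0406, adjusted p = 0.0279). The latter call was lost without Nrf1-KO DMSO replicate 1 (-0.07, adjusted p = 0.134). Of the exons of Mcm7, 13% overlap Ap4m1 and Cops6 on the other strand.

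The proteins that turn the loaded helicase into an active one behaved differently from MCM2-7. In WT, 4 of these 6 genes were higher at 24 h, where 43.2% of all tested genes were, and 1 was lower, where 40.5% were. In Nrf1-KO none was higher, where 44.4% of all were, and 3 were lower (50%), which was near the 41.1% of all. Gins3, a GINS subunit, was at 16.5, 17.0 and 17.1 CPM in WT DMSO, at 28.5, 30.0 and 31.7 CPM at 6 h and at 26.6, 29.6 and 28.8 CPM at 24 h. In Nrf1-KO it was at 21.7, 18.6 and 20.7 CPM, at 24.4, 23.0 and 21.2 CPM and at 20.3, 20.9 and 20.3 CPM. In WT both CFZ groups lay above DMSO, and in Nrf1-KO both overlapped it. Its log2 fold change at 24 h was 0.76 in WT (SE 0.0661, adjusted p = 3.65e-12), the largest rise among the 50 genes, and 0.01 in Nrf1-KO (SE 0.0654, adjusted p = 0.88), which turned to -0.17 with library size alone (adjusted p = 0.0157). Cdc45 was at 29.6, 32.2 and 32.6 CPM in WT DMSO and at 39.1, 42.9 and 45.7 CPM at 24 h, and in Nrf1-KO at 39.5, 43.2 and 41.6 CPM and at 25.4, 25.3 and 23.2 CPM. The lines thus moved in opposite directions, by 0.45 (SE 0.0603, adjusted p = 4.13e-08) and by -0.75 (SE 0.0615, adjusted p = 8.48e-13) on the log2 scale. Exons of Cdc45 overlap the opposite-strand gene Ufd1 over 7.89% of their length.

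Gins2 was at 30.6, 32.8 and 32.2 CPM in WT DMSO and at 35.9, 42.5 and 41.9 CPM at 24 h (log2 0.35, SE 0.0592, adjusted p = 3e-06), and at 41.2, 39.6 and 37.8 CPM and 34.0, 36.6 and 37.9 CPM in Nrf1-KO (log2 -0.12, adjusted p = 0.0533). The latter passed the threshold in several alternatives, among them library size alone (-0.30, adjusted p = 1.02e-05) and the fits without Nrf1-KO DMSO replicate 3 or CFZ 24 h replicate 2 or 3 (-0.18 at the lowest, adjusted p = 0.0079). Exons of Gins2 overlap the opposite-strand gene Gse1 over 70.7% of their length, and whether reads were counted by strand is not stated, so its value may hold reads of Gse1. Gins4 was at 46.2, 44.5 and 49.7 CPM in WT DMSO and at 49.7, 55.5 and 51.8 CPM at 24 h, with the highest DMSO library just under the lowest at 24 h (log2 0.17, SE 0.0499, adjusted p = 0.00222). This call was lost with upper-quartile scaling (0.04, adjusted p = 0.522) and library size alone (0.07, adjusted p = 0.216). In Nrf1-KO Gins4 was at 43.3, 42.3 and 45.1 CPM and at 42.5, 44.4 and 46.8 CPM (log2 0.03, adjusted p = 0.58), and library size alone gave -0.15 (adjusted p = 0.00595). Gins1 was the only subunit that fell in WT, from 10.8, 12.1 and 10.6 CPM to 6.81, 5.76 and 5.21 CPM (log2 -0.94, SE 0.102, adjusted p = 6.08e-10), and in Nrf1-KO it went from 13.0, 14.8 and 13.8 CPM to 4.01, 4.55 and 4.44 CPM (log2 -1.67, SE 0.0995, adjusted p = 2.84e-16). The 4 genes of this one complex thus moved in both directions in WT. Mcm10, which helps activate the helicase, was at 0.05 in WT (adjusted p = 0.552) and changed by -0.65 in Nrf1-KO (adjusted p = 5.25e-10). The WT value turned to -0.09 under upper-quartile scaling and to -0.06 with library size alone, and without WT DMSO replicate 2 it was 0.16 and called higher (adjusted p = 0.0363).

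**Figure D4:**
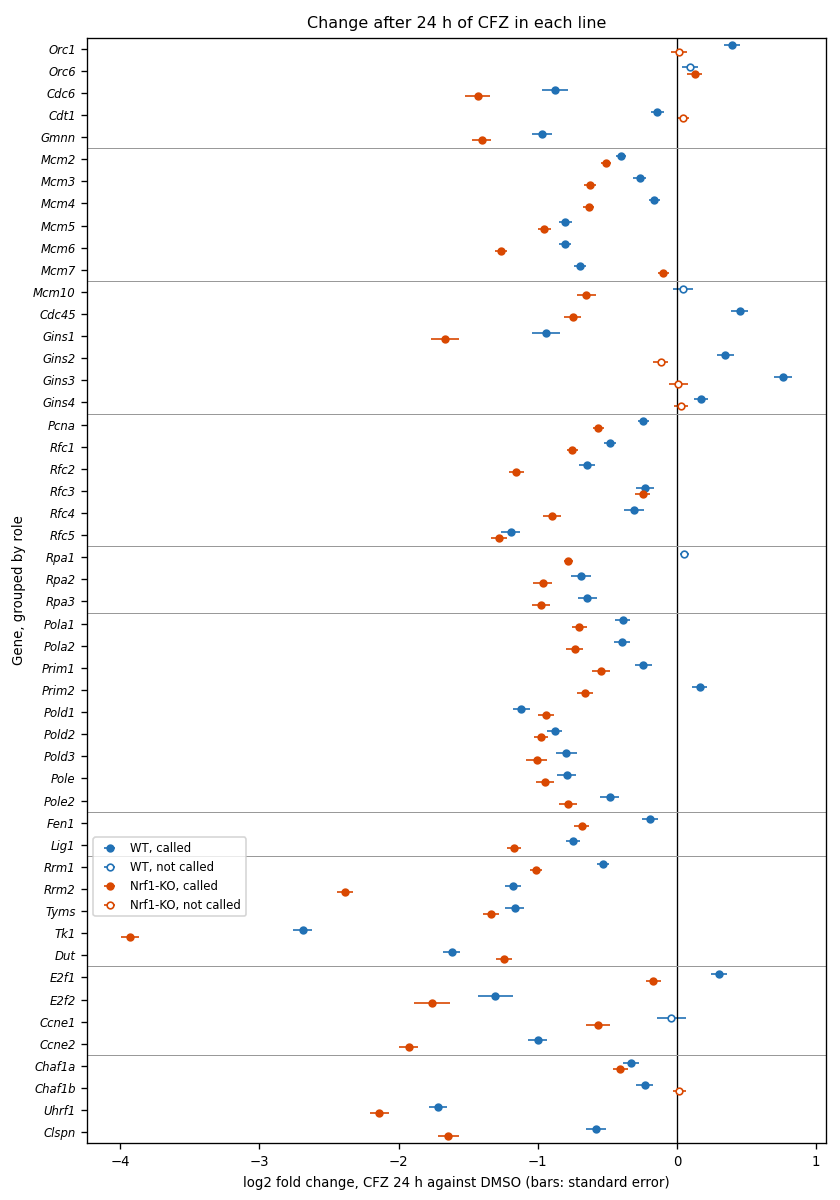
The x axis is the log2 fold change between 24 h of CFZ and DMSO, with WT in blue, Nrf1-KO in orange, bars for the standard error and open points for genes not called. Orange points lie left of blue for most genes, Tk1 lies farthest left at -2.69 and -3.93, and Mcm7, Dut, Chaf1b, Cdt1, Pold1 and Orc6 have the orange point to the right.

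The sliding clamp PCNA and its loader, replication factor C, were lower at 24 h: all 6 genes then fell in both lines. Rfc5 fell most in WT, from 32.4, 35.0 and 33.6 CPM in DMSO to 13.5, 14.9 and 15.3 CPM at 24 h, and in Nrf1-KO from 50.96, 50.99 and 50.01 CPM to 20.7, 21.4 and 20.5 CPM. The 2.29-fold fall in WT (log2 -1.19, SE 0.0681, adjusted p = 9.7e-17) and the 2.42-fold fall in Nrf1-KO (log2 -1.28, SE 0.0569, adjusted p = 1.26e-19) were close to each other. Rfc2 fell by 0.65 in WT and by 1.15 in Nrf1-KO, Rfc1 by 0.48 and 0.75, Rfc4 by 0.31 and 0.90, Pcna by 0.24 and 0.57, and Rfc3 by 0.23 and 0.25, all on the log2 scale. Pcna had the highest level per kb of all 50 genes in WT DMSO, 88.7 CPM per kb, and 12.7% of its stretches of read length are shared with the pseudogene Pcna-ps2, so reads may have been split or lost there. Exons of Rfc2, Rfc5 and Rfc4 overlap the opposite-strand genes Lat2, Wsb2 and Eif4a2 over 19.1%, 15.4% and 14.8% of their length.

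Replication protein A coats the single-stranded DNA behind the helicase, and its 3 subunits differed in WT. Rpa2 was at 31.3, 36.0 and 30.0 CPM in DMSO and at 21.1, 19.7 and 19.9 CPM at 24 h (log2 -0.69, SE 0.0721, adjusted p = 2.71e-10), and Rpa3 changed by -0.64 (adjusted p = 5.02e-10). Rpa1, the large subunit that binds DNA, was at 271.9, 289.5 and 272.1 CPM in WT DMSO, at 348.2, 354.2 and 359.8 CPM at 6 h and at 288.5, 293.6 and 283.2 CPM at 24 h. It had risen at 6 h and overlapped DMSO at 24 h (log2 0.05, SE 0.0328, adjusted p = 0.126). Without WT DMSO replicate 2 the 24 h value was called higher (0.09, adjusted p = 0.0262), with upper-quartile scaling it was called lower (-0.08, adjusted p = 0.0228), and with library size alone it was -0.05. In Nrf1-KO all 3 subunits fell. Rpa1 went from 317.2, 305.9 and 315.5 CPM to 178.2, 183.9 and 183.9 CPM (log2 -0.78, SE 0.0332, adjusted p = 3.61e-20), Rpa2 from 36.0, 38.7 and 37.4 CPM to 17.3, 20.7 and 19.2 CPM (log2 -0.97, SE 0.0683, adjusted p = 2.17e-14), and Rpa3 changed by -0.98.

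Of the 9 genes of the polymerases and primase, 8 were lower at 24 h in WT and all 9 in Nrf1-KO. Pold1, the catalytic subunit of polymerase delta, which copies the lagging strand, went from 44.6, 47.2 and 46.5 CPM in WT DMSO to 21.8, 19.6 and 22.4 CPM at 24 h, and from 48.2, 47.4 and 42.7 CPM to 24.5, 23.9 and 23.2 CPM in Nrf1-KO. The lines overlapped in DMSO, and at 24 h the Nrf1-KO libraries lay above those of WT, with log2 fold changes of -1.12 (SE 0.0603, adjusted p = 2.12e-17) and -0.94 (SE 0.0567, adjusted p = 3.85e-16). The other delta subunits changed by -0.88 in WT and -0.98 in Nrf1-KO for Pold2 and by -0.79 and -1.01 for Pold3. Polymerase epsilon, which copies the leading strand, changed by -0.79 and -0.95 for its catalytic subunit Pole and by -0.48 and -0.79 for Pole2, which shares 14.4% of its exon length with Gm49384 on the same strand. The polymerase alpha genes Pola1 and Pola2, which extend the first primers, changed by -0.39 each in WT and by -0.70 and -0.74 in Nrf1-KO. The catalytic primase subunit Prim1 changed by -0.24 and -0.54.

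Prim2, the large primase subunit, stood apart from its partner. In WT it was at 44.8, 50.9 and 44.5 CPM in DMSO, at 60.4, 65.8 and 66.6 CPM at 6 h and at 49.2, 53.2 and 53.7 CPM at 24 h. In Nrf1-KO it was at 47.4, 49.8 and 51.7 CPM, at 80.4, 86.2 and 83.8 CPM and at 33.9, 30.4 and 30.6 CPM. Both lines rose at 6 h. At 24 h the WT values overlapped those in DMSO, and the Nrf1-KO values lay below all of theirs. The 24 h log2 fold changes were 0.16 in WT (SE 0.0558, adjusted p = 0.00806) and -0.66 in Nrf1-KO (SE 0.0583, adjusted p = 4.76e-12). The WT call was lost with upper-quartile scaling (0.03, adjusted p = 0.657), library size alone (0.06, adjusted p = 0.342), no expression filter (0.11, adjusted p = 0.0658) and without WT DMSO replicate 1 or 3 (adjusted p up to 0.144).

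Okazaki fragments are trimmed by Fen1 and sealed by DNA ligase 1 (Lig1), and both genes fell in both lines at both times. Lig1 was at 130.9, 145.0 and 137.6 CPM in WT DMSO and at 83.1, 84.5 and 78.9 CPM at 24 h (log2 -0.75, SE 0.0507, adjusted p = 8.85e-15), and at 151.6, 142.7 and 135.1 CPM and 64.7, 64.5 and 61.0 CPM in Nrf1-KO (log2 -1.17, SE 0.0511, adjusted p = 7.24e-20). The 24 h groups of the lines did not overlap, and those in DMSO did. Fen1 changed by -0.19 and -0.68, and 84.2% of its exon length overlaps opposite-strand genes.

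Among the regulators of G1/S, E2f2 and cyclin E2 (Ccne2) fell and E2f1 and cyclin E1 (Ccne1) did not follow them in WT. E2f2, an activating E2F, was the least abundant of the 50 genes, at 7.76, 8.92 and 8.29 CPM in WT DMSO and 3.86, 3.54 and 2.85 CPM at 24 h, and at 8.80, 8.72 and 8.29 CPM and 2.04, 3.11 and 2.28 CPM in Nrf1-KO. The log2 fold changes were -1.30 (SE 0.129, adjusted p = 7.67e-11) and -1.76 (SE 0.131, adjusted p = 7.13e-14). E2f1 was at 30.4, 32.3 and 28.6 CPM in WT DMSO and at 39.0, 36.8 and 37.6 CPM at 24 h. In Nrf1-KO it was at 36.1, 40.6 and 36.8 CPM and at 33.7, 34.6 and 32.4 CPM. The 24 h libraries were thus all above DMSO in WT and all below it in Nrf1-KO, by 0.30 (SE 0.0576, adjusted p = 1.63e-05) and -0.17 (SE 0.0547, adjusted p = 0.00538). Ccne2, a partner of CDK2 at the start of S phase, fell from 26.02, 29.5 and 26.5 CPM to 13.9, 12.5 and 14.6 CPM at 24 h in WT (adjusted p = 1.56e-14), and changed by -1.93 on the log2 scale in Nrf1-KO (adjusted p = 3.14e-22). Exons of Ccne2 overlap the opposite-strand gene Ints8 over 19% of their length. Ccne1 was at -0.04 in WT (adjusted p = 0.736), from -0.15 to 0.14 when single libraries were left out, and changed by -0.57 in Nrf1-KO (adjusted p = 6.45e-07).

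The genes that rebuild and guard chromatin behind the fork ranged widely. Uhrf1, which reads newly copied DNA so that its methylation is restored, was at 156.3, 167.8 and 152.0 CPM in WT DMSO and at 46.9, 47.6 and 50.1 CPM at 24 h, and at 197.1, 189.4 and 170.8 CPM and 43.2, 47.3 and 35.3 CPM in Nrf1-KO. It fell 3.29-fold in WT (log2 -1.72, SE 0.0664, adjusted p = 3.35e-21), second to Tk1, and 4.4-fold in Nrf1-KO (log2 -2.14, SE 0.0654, adjusted p = 5.39e-24). Claspin (Clspn), the adaptor that passes the stalled-fork signal from ATR to CHK1, fell by 0.58 in WT (adjusted p = 7.61e-09) and by 1.64 in Nrf1-KO (adjusted p = 4.13e-19). The chromatin assembly factor genes changed little. Chaf1a changed by -0.33 and -0.41, and 48.6% of its exon length overlaps Ubxn6 on the other strand. Chaf1b was at 26.2, 29.6 and 27.0 CPM in WT DMSO and at 23.9, 22.8 and 23.9 CPM at 24 h (log2 -0.23, SE 0.0617, adjusted p = 0.00104), and in Nrf1-KO at 50.9, 47.0 and 50.3 CPM and at 50.6, 51.3 and 48.4 CPM (log2 0.02, SE 0.0471, adjusted p = 0.719, turning to -0.16 with library size alone, adjusted p = 0.00213). In each state the 3 Nrf1-KO libraries lay above the 3 of WT.

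At 6 h the response was smaller and mixed. In WT 18 of the 50 genes were lower, where 36.2% of all tested genes were, and 9 were higher, where 35.6% were, with a median log2 fold change of -0.06. In Nrf1-KO 27 were lower against 35% of all genes and 8 higher against 34.5%, with a median of -0.13. The WT share of lower calls, 36%, was thus at the background. Upper-quartile scaling and library size alone moved the median of all genes by -0.109 and -0.132 in WT, and library size alone by -0.113 in Nrf1-KO. Under upper-quartile scaling and library size alone the WT counts were 30 and 31 lower, with 7 higher under each, while the share of higher among all calls moved from 49.6% to 37.9% and 35.4%. In Nrf1-KO, library size alone gave 33 lower and 4 higher, and that share moved from 49.7% to 36.4%. Without WT CFZ 6 h replicate 1, 14 genes and not 9 were called higher in WT. Calls shared by both lines at 6 h were not counted over all tested genes, so the shared counts that follow have no background share and are given as lists. The 17 genes lower in both lines at 6 h were Tk1 with Dut, Rrm1 and Rrm2, Ccne1, Ccne2 and Gmnn, and further Mcm6, Mcm7, Rfc2, Rfc5, Rpa3, Pold1, Pole2, Fen1, Lig1 and Uhrf1. Apart from Tk1, Rpa3 changed by -0.63 in WT and -0.70 in Nrf1-KO and Ccne1 by -0.60 and -0.75. The 5 genes higher in both lines were Mcm10, Gins3, Orc6, Pola1 and Prim2. Of these Mcm10 rose by 0.68 in WT and 0.34 in Nrf1-KO, Orc6 by 0.42 and 0.38 and Prim2 by 0.46 and 0.74.

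Between 6 and 24 h most of the genes went down. In WT 41 were lower at 24 h than at 6 h (35.4% of all tested genes) and 4 higher (36.9%), and in Nrf1-KO 43 were lower (38.3%) and 1 higher (38.7%). The median log2 differences were -0.43 and -0.78. Cdc6 was at 31.9, 35.2 and 37.7 CPM at 6 h and 17.4, 17.8 and 16.9 CPM at 24 h in WT, a log2 difference of -1.01, beside -1.52 in Nrf1-KO. Uhrf1 changed by -1.53 and -1.97, Tyms by -1.08 and -1.36 and Clspn by -0.69 and -1.68 between these times. The genes higher at 24 h than at 6 h in WT were Ccne1 (0.56), Gins2 (0.42), E2f1 (0.36) and Gins4 (0.22), and in Nrf1-KO Mcm7 alone (0.16).

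The second question was whether the response to CFZ differed between the lines, which was tested as the interaction of genotype and CFZ. At 24 h the difference was below 0, meaning a lower ratio of CFZ to DMSO in Nrf1-KO, for 35 of the 50 genes, where 30% of all tested genes were lower, and above 0 for 4, where 29.7% were higher. The median interaction was -0.37, beside 0.00489 over all genes. With library size alone the counts were 40 and 2, and the share of higher among all calls was 40% and not 49.8%. The lowest values were those of Tk1 (-1.24, SE 0.112, 95% interval -1.47 to -1.02, adjusted p = 4.01e-11), Rrm2 (-1.21, SE 0.0839, adjusted p = 1.02e-13) and Cdc45 (-1.20, SE 0.0862, adjusted p = 2.12e-13). Clspn (-1.06) and Ccne2 (-0.93) followed. The 4 genes with a higher ratio in Nrf1-KO were Mcm7 (0.60, SE 0.0608, adjusted p = 5.17e-10), Dut (0.38, SE 0.0857, adjusted p = 0.000365), Chaf1b (0.25, SE 0.0776, adjusted p = 0.00652) and Cdt1 (0.19, SE 0.0657, adjusted p = 0.016). Chaf1b and Cdt1 lost the call with library size alone (adjusted p = 0.0603 and 0.165), and Cdt1 also without WT DMSO replicate 2 or Nrf1-KO DMSO replicate 3. Among the 35, 3 calls rested on single libraries. Rpa2 (-0.28, adjusted p = 0.0191) was lost without WT DMSO replicate 3 or Nrf1-KO CFZ 24 h replicate 1 (adjusted p up to 0.0656). Mcm5 (-0.15, adjusted p = 0.0493) was lost without any single one of WT DMSO replicates 1 and 3, WT CFZ 24 h replicates 2 and 3, Nrf1-KO DMSO replicates 1 and 2 and Nrf1-KO CFZ 24 h replicate 3 (adjusted p up to 0.194). E2f2 (-0.46, adjusted p = 0.0458) was lost without any single one of WT DMSO replicates 1 and 3, WT CFZ 24 h replicates 1 and 2, Nrf1-KO DMSO replicates 1 and 2 and Nrf1-KO CFZ 24 h replicates 1 and 3 (adjusted p up to 0.158). DESeq2 called neither E2f2 (adjusted p = 0.0857) nor Mcm5 (adjusted p = 0.0862).

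Of the 37 genes lower in both lines, 26 fell by more in Nrf1-KO, 2 by less (Mcm7 and Dut), and for 9 the difference was not called. This split was not counted over all tested genes lower in both lines, so it has no background share beside it. The 9 genes without a call were Mcm2, Rfc3, Rfc5, Pold1, Pold2, Pold3, Pole, Tyms and Chaf1a, so that all 3 delta subunits measured here were among them. For Pold1 the interaction was 0.18 (adjusted p = 0.0666) and for Tyms -0.17 (adjusted p = 0.125). A missed threshold does not show that these genes responded alike.

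At 6 h the interaction was called for fewer genes, 11 lower (18.4% of all tested genes) and 6 higher (19.8%). The 3 lowest were Gins3 (-0.66, SE 0.0951, adjusted p = 1.41e-06), Rpa1 (-0.46, SE 0.0463, adjusted p = 1.64e-09) and Orc1 (-0.38, SE 0.0823, adjusted p = 0.000375), each of which had risen in WT. The others were Mcm10 and Cdc45 (both -0.34), Fen1 (-0.30), Mcm4 (-0.28), Mcm5 (-0.25), Pcna (-0.23), Mcm6 (-0.21) and Pold2 (-0.20). Pold2 was not called by DESeq2 (adjusted p = 0.0591) or without WT DMSO replicate 3, Nrf1-KO DMSO replicate 2 or Nrf1-KO CFZ 6 h replicate 3 (adjusted p up to 0.0853). The 3 highest were E2f2 (0.48, SE 0.162, adjusted p = 0.0195), Prim2 (0.28, SE 0.0757, adjusted p = 0.0035) and Pold1 (0.27, SE 0.078, adjusted p = 0.00626). E2f2 was at 5.76, 5.24 and 4.97 CPM in WT at 6 h and at 8.07, 7.18 and 7.67 CPM in Nrf1-KO, so it had fallen in WT, while in Nrf1-KO it lay just under DMSO without a call (log2 -0.16, adjusted p = 0.19). Leaving out WT DMSO replicate 2, WT CFZ 6 h replicate 1 or 2, or Nrf1-KO CFZ 6 h replicate 1 brought the 6 higher calls down to 2, and E2f2 was not called with DESeq2 (adjusted p = 0.055). E2f2 was also lost without WT CFZ 6 h replicate 3 (adjusted p = 0.075), and Pold1 without WT CFZ 6 h replicate 1 (adjusted p = 0.0537). The 3 not named so far, Dut (0.21), Chaf1b (0.20) and Cdt1 (0.19), were each lost in those 4 fits and in others that left out a library (adjusted p up to 0.116, 0.21 and 0.125).

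**Figure D5:**
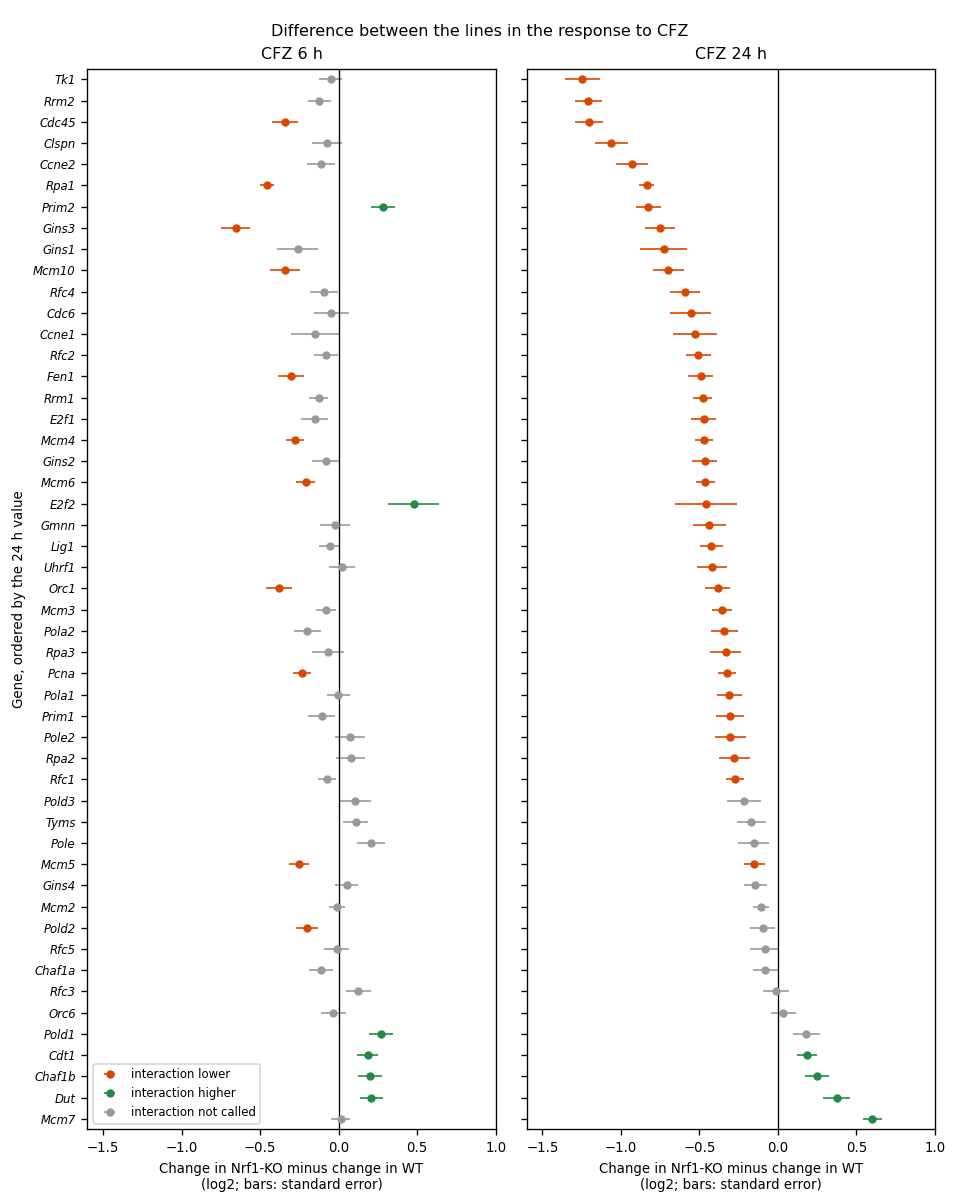
The x axes give the log2 change with CFZ in Nrf1-KO minus that in WT, at 6 h on the left and 24 h on the right, for each of the 50 genes ordered by the 24 h value, with bars for the standard error and grey for genes not called. At 24 h 35 points are orange (lower) and 4 green (higher), from -1.24 for Tk1 to 0.60 for Mcm7, while most points at 6 h lie near 0.

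The third comparison set the lines side by side in DMSO. Before any CFZ, 34 of the 50 genes were higher in Nrf1-KO, where 25.7% of all tested genes were, and 1 was lower, where 29.1% were. The median was 0.22 on the log2 scale, beside -0.02 over all genes, and none of the differences reached 2-fold. The largest were those of Chaf1b (49.4 ± 2.11 against 27.6 ± 1.76 CPM, SD, n = 3; log2 0.84, SE 0.0515, adjusted p = 6.59e-15), Ccne1 (27.1 ± 2.01 against 15.2 ± 3.29 CPM; log2 0.82, SE 0.0897, adjusted p = 3.49e-09) and Tk1 (111.8 ± 2.24 against 63.2 ± 2.68 CPM; log2 0.82, SE 0.0426, adjusted p = 1.16e-16). Tyms and Rfc5 (both 0.59), Rfc4 (0.54) and Rfc1 (0.52) came next. All 6 clamp and clamp loader genes and all 3 RPA genes were higher, but only 2 of the 9 polymerase and primase genes, Pole (0.23) and Pole2 (0.31). Dut was the one gene called lower (58.7 ± 2.81 against 72.6 ± 4.74 CPM; log2 -0.30, SE 0.0483, adjusted p = 3.52e-06). Gins4 was at -0.10 (adjusted p = 0.101). Of the 35 genes with a lower interaction at 24 h, 26 were called higher in Nrf1-KO in DMSO, an overlap not counted over all tested genes. As 68% of all 50 genes were higher in DMSO, most of any such subset would overlap, and no link is read from it. Because the DMSO libraries enter both this comparison and the responses to CFZ, they are not independent of each other. With library size alone 37 genes were higher and 1 lower, and the share of higher among all calls was 57.7% and not 46.9%. The higher count ran from 32 to 38 when single libraries were left out, and without WT DMSO replicate 2 the lower count was 2 and not 1.

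Genes with an E2F motif in their RefSeq window had a median log2 fold change at 24 h of -0.70 in WT and -0.94 in Nrf1-KO (17 genes, 15 and 14 of them called lower). Those with a window and no such motif had -0.36 and -0.75 (24 genes, 18 and 22 called lower). Some of these 24 genes, among them Rrm1, Rrm2 and Fen1, hold the looser core, and a split by the core was not made. The motif was found in genes that fell, such as Uhrf1, Mcm6 and Cdc6 shown above, and also in Orc1 and Gins3, which rose in WT, while the window of Tk1, the gene with the largest fall, held none of these letters.

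Other genes of the same pathways were read from lists outside the 50, to be set against the shares of all tested genes at 24 h (40.5% lower and 43.2% higher in WT, 41.1% and 44.4% in Nrf1-KO). Of 17 other origin and firing genes 14 were lower at 24 h in WT and 13 in Nrf1-KO, with 3 higher in each. Mcm8, a helicase of DNA repair, changed by -1.37 and -1.62 and Timeless, of the fork protection complex, by -1.27 and -1.67, whereas Orc4 rose by 1.10 and 1.18. Of 16 other fork genes 9 and 10 were lower and 3 and 3 higher. Topoisomerase Top2a, which untangles replicated chromosomes, changed by -1.43 and -3.08 and its interaction was -1.64 (adjusted p = 1.78e-19), and the RNase H2 genes Rnaseh2b and Rnaseh2c by -1.24 and -1.14 and by -0.76 and -1.52.

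Of 8 other nucleotide genes 5 were lower in WT and 4 in Nrf1-KO, with 2 and 3 higher, which in Nrf1-KO (50% and 37.5%) was near those shares. Of 17 tested genes of G1/S control, out of 18, 9 were lower in WT and 11 in Nrf1-KO, with 3 and 5 higher. Cyclin A2 (Ccna2), the S phase and G2 cyclin, changed by -2.63 and -5.00 (interaction -2.37, adjusted p = 3.99e-20), the repressor E2f8 by -1.91 and -2.20, and Fbxo5, an inhibitor of the anaphase-promoting complex, by -1.76 and -2.60. Ccna2 is transcribed later in the cycle than Tk1 and Rrm2, and like them it ended lower relative to DMSO in Nrf1-KO.

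The ubiquitin ligase genes that clear Cdt1 and other licensing factors were counted apart. Of 8 genes 5 were higher and 2 lower in WT, and 3 were higher and 5 lower in Nrf1-KO. Fbxo31 changed by -1.14 and -1.01, Skp1a by 0.78 and 0.33, and Dtl, the receptor that brings Cdt1 to its ligase on PCNA, by -0.55 and -0.48. Of 8 S phase checkpoint genes 5 were lower in WT and 4 in Nrf1-KO, with 1 and 2 higher, and the lower share in Nrf1-KO, 50%, was near the 41.1% of all tested genes. The CDK-inhibiting kinase Wee1 changed by -1.61 and -1.88, Atr by -0.96 and -0.95 and Chek1 by -0.94 and -1.07. For Atr the interaction was 0.01 (adjusted p = 0.949) and for Chek1 -0.13 (adjusted p = 0.248), while that of their adaptor Clspn was -1.06 (adjusted p = 4.44e-10).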

How the data were processed

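RNA from NIH-3T3 WT and Nrf1-KO cells was sequenced in 18 libraries. The authors prepared stranded mRNA libraries (KAPA kit), read from both ends, and processed them with RNA Express, which combines STAR and DESeq2. They deposited 1 table of raw counts of reads per gene symbol. Versions, genome build, annotation and use of strand are not given in the sources used here. Columns were matched to samples by name, and 0 columns were left unused. The labels gave each library its group and number.

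Counts were analysed as deposited with edgeR 4.0.16 in R 4.3.3 (TMM factors, filterByExpr with a minimum count of 10, 1 model of all 6 groups with 12 residual degrees of freedom, quasi-likelihood tests). P-values were adjusted over all 11762 tested genes, and a call is an adjusted p under 0.05. The interaction is the change in Nrf1-KO minus that in WT. CPM values use TMM-scaled library sizes. Levels per kb divide CPM by the exon length of GENCODE M21 (GRCm38). The 50 genes and the other lists were chosen with earlier results of these data known.

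All 50 genes are named at least once. Full statistics were given for the largest change at 24 h in WT per role group, the 3 largest interactions in each direction, the genes that moved against most others, and the 3 largest differences in each direction between the lines in DMSO where called. In other lists up to 3 genes with the largest change at 24 h in WT were named, except in the list of other nucleotide genes, of which counts alone are given because one gene is not reported here. Alternatives were DESeq2 1.42.0, upper-quartile scaling, library size alone, no filter, a mean count of at least 10, a fit of the groups under comparison, a block on the replicate number, a minimum fold of 2 and leaving out each library.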

Additional observations from a re-analysis of the deposited data

Results flagged for a closer look

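The responses of the lines to CFZ differed by a test of the difference itself, the interaction in edgeR, for 6 genes above and 11 below 0 at 6 h and for 4 above and 35 below 0 at 24 h. Of all tested genes 19.8% were above and 18.4% below 0 at 6 h, so the counts at 6 h (12% and 22% of the 50) were under or near the background, and 29.7% and 30% at 24 h (8% and 70% of the 50). The 6 at 6 h became 2 without WT DMSO replicate 2, WT CFZ 6 h replicate 1 or 2, or Nrf1-KO CFZ 6 h replicate 1, and DESeq2 did not call E2f2 (adjusted p = 0.055). At 6 h the largest were those of E2f2 (0.48), Prim2 (0.28) and Pold1 (0.27) above 0 and Gins3 (-0.66), Rpa1 (-0.46) and Orc1 (-0.38) below it. At 24 h they were those of Mcm7 (0.60), Dut (0.38) and Chaf1b (0.25) above 0 and Tk1 (-1.24), Rrm2 (-1.21) and Cdc45 (-1.20) below it, all on the log2 scale. Groups of 3 libraries are too small for a test of single outlying samples.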

How the results depend on the processing

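A minimum fold of 2 left 0 genes higher in every comparison, and the lower counts became 1 and 8 in WT at 6 and 24 h, 1 and 17 in Nrf1-KO, 6 and 13 between the times, 0 and 4 for the interactions and 0 in DMSO. Upper-quartile scaling and library size alone gave medians of -0.169 and -0.192 in WT at 6 h, -0.618 and -0.586 at 24 h, -0.206 and -0.245 in Nrf1-KO at 6 h and -0.892 and -0.966 at 24 h, lower counts of 30 and 31 in WT at 6 h, and library size alone a median of -0.85 between the times in Nrf1-KO, 4 higher at 6 h in Nrf1-KO and 2 higher interactions at 24 h. Without the filter the Nrf1-KO medians were -0.182 and -0.833, and with the groups under comparison alone -0.82 at 24 h. No gene was higher at 24 h in Nrf1-KO (0) under DESeq2, either scaling, no filter or the groups alone. Values near 0 turned sign. At 24 h in WT, upper-quartile scaling, library size alone and no filter gave -0.0907, -0.0589 and -0.0096 for Mcm10 and -0.0828, -0.0512 and -0.0021 for Rpa1, and the scalings gave -0.0428 and -0.0109 for Orc6. At 6 h library size alone gave -0.0065 for Mcm5. At 24 h in Nrf1-KO the same 3 settings gave -0.0638, -0.137 and -0.0047 for Cdt1, -0.0977, -0.172 and -0.0391 for Gins3, -0.0788, -0.153 and -0.0202 for Gins4, -0.094, -0.169 and -0.0352 for Orc1 and -0.0905, -0.165 and -0.0316 for Chaf1b, and library size alone -0.0559 for Orc6. The groups alone gave -0.0264 for Gins3, -0.0067 for Gins4, -0.0227 for Orc1 and -0.0186 for Chaf1b, and DESeq2 -0.0035 for Gins3 and -0.00012 for Orc1. Leaving out single libraries gave 7 to 14 higher in WT at 6 h, 0 to 1 higher at 24 h in Nrf1-KO, 2 to 6 higher interactions at 6 h and 1 to 2 lower in DMSO, medians of -0.853 to -0.765 at 24 h in Nrf1-KO and -0.484 to -0.408 between the times in WT, and log2 fold changes at 24 h of -0.067 to 0.159 for Mcm10 and -0.15 to 0.141 for Ccne1 in WT, and in Nrf1-KO -0.016 to 0.065 for Cdt1, -0.043 to 0.048 for Gins3, -0.038 to 0.057 for Gins4, -0.029 to 0.018 for Orc1 and -0.036 to 0.034 for Chaf1b. The cause was not tested. Over 4782 alternatives of 342 gene results, 134 lost a call, 11 gained one and 47 turned sign. Replicate numbers did not pair the libraries (45 same-numbered pairs, mean correlation 0.0136, from -0.0494 to 0.0972). With the replicate block 44 genes were lower at 24 h in Nrf1-KO and 12 interactions were lower at 6 h, and the other counts stayed as reported. Precision is limited by 3 libraries a group and, for E2f2, by as few as 29 reads. The common biological coefficient of variation that edgeR estimated was 3.13%, so the small p-values are set against a small spread between libraries. How the replicates were grown is not given in the sources used here.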
